A study of Pongo abelii with 8 samples.

Results

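The genes described here encode the enzymes that carry glucose carbon through uptake, glycolysis, the pentose phosphate pathway and the tricarboxylic acid (TCA) cycle. A list of 42 genes was taken by name, and a probe set of the array was used when the platform annotation gave it exactly 1 gene symbol and that symbol was on the list. This rule gave 41 genes at 76 probe sets, of 11963 genes and 22277 probe sets in all, and FH, which encodes fumarase, was not analysed here. For each gene the probe set with the highest mean over the 8 arrays was used, and the other probe sets of a gene are mentioned where their call differed.

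RNA was measured in 8 cultures of cells from 2 Sumatran orangutans, each hybridized to its own single-colour Affymetrix array made for human transcripts. The induced pluripotent stem cells (iPSCs) were 3 colonies from KB10973, a 29 year old male, and 3 colonies from KB10460, a 43 year old female, all made by retroviral transfer of the human forms of OCT4, SOX2, KLF4 and c-MYC into skin fibroblasts. They were compared with cultured dermal fibroblasts of the same animals, 1 culture from KB10973 and 1 from KB10460. The 3 colonies of each animal are not separate animals, and the p-values therefore cover only the variation among cultures of 2 orangutans. Colonies were derived on mouse feeder cells. By the growth notes the iPSCs were kept in a serum-replacement medium and the fibroblasts in a medium with bovine serum, while the series description gives the serum-replacement medium for both, so that culture medium and cell type cannot be told apart.

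Glycolysis splits glucose into pyruvate in the cytosol, and lactate dehydrogenase turns pyruvate into lactate and back. The pentose phosphate pathway branches off after the first step and yields NADPH and the ribose of nucleotides, while pyruvate dehydrogenase carries pyruvate into mitochondria, where the TCA cycle oxidizes it. Pluripotent stem cells are known for a high glycolytic rate, and many steps have isoenzymes encoded by different genes that are used to different degrees by different cell types.

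The values are log2 expression values from the RMA method, which subtracts background and gives all arrays the same distribution, so changes are relative to the other transcripts of the array. Calls of a higher or lower gene rest on limma and needed both a fold above 1.5 and an adjusted p (Benjamini-Hochberg) below 0.05. Array medians lay between 3.74 and 3.82, and on average 71.1% of probe sets lay under 5 on an array, where a value is low and a fold change is understated. The probes match human sequence, so mismatches to orangutan transcripts can lower a value, and the level at a probe set was not set against that at a probe set of another gene. Transcripts of processed pseudogenes and near-identical copies, which exist for GAPDH, PGK1, SLC2A3 and other genes named here, cannot be told apart from their source gene.

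Of 7 pluripotency markers measured 6 were higher in iPSCs, with a mean level over the list of 7.40 to 7.88 in iPSCs against 3.68 to 3.73 in fibroblasts. Of 13 fibroblast markers 12 were lower in iPSCs and 1, THY1, was higher. The mean level over this list was 4.93 to 5.34 in iPSCs against 9.17 to 9.59 in fibroblasts. Of 6 endoderm markers 3 were higher in iPSCs, with a mean level of 4.80 to 6.41 in the colonies against 3.66 to 3.89 in fibroblasts. Also higher in iPSCs were 2 of 5 neural ectoderm markers, 1 of 3 mesoderm and muscle markers and 1 of 4 melanocyte markers, and none of these lists had a lower one. Among all genes 15.2% were higher and 11.5% lower. All 5 keratinocyte markers measured were under 5 on every array. Of 5 macrophage and leukocyte markers 2 were lower in iPSCs, CD14 and CD163, and all 5 were under 5 in the colonies. Of 6 endothelial markers 2 were higher in iPSCs and 1, PECAM1, was lower. The part of differentiated cells in the values below was not tested, and a change in the share of cells of a type cannot be told apart from a change in RNA per cell.

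More of the carbon metabolism genes were higher than lower in iPSCs. Of the 41 genes 15 were higher (36.6%, against 15.2% of all 11963 genes), 3 were lower (7.32%, against 11.5% of all genes) and 23 were not called. Low genes were rarer in the list, as 33 of the 41 genes had a mean over 5 in at least 1 cell type, against 5033 of all 11963. Among these 33 genes 14 were higher and 3 lower, beside 31.2% higher and 22.6% lower among the 5033. All 6 iPSC arrays were above both fibroblast arrays in 21 genes (51.2%, against 23.6% of all genes) and below both in 6 genes (14.6%, against 19.7% of all genes), and the arrays overlapped in 14. The median log2 fold change over the 41 genes was 0.38, beside -0.00 over all genes. The median over the 41 genes was 0.24 without the KB10460 fibroblasts, and -0.036 when the arrays were scaled to an equal mean over probe sets above 6, which moves every gene by the same amount. The 3 genes called lower were PFKP, PFKFB3 and LDHA, all of glycolysis, and no gene of the pentose phosphate pathway, pyruvate dehydrogenase or the TCA cycle was called lower, except when the arrays were scaled to an equal mean over probe sets above 6 (10 genes of the list called lower) or over probe sets above 6 in both cell types (5 called lower).

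**Figure D1:**
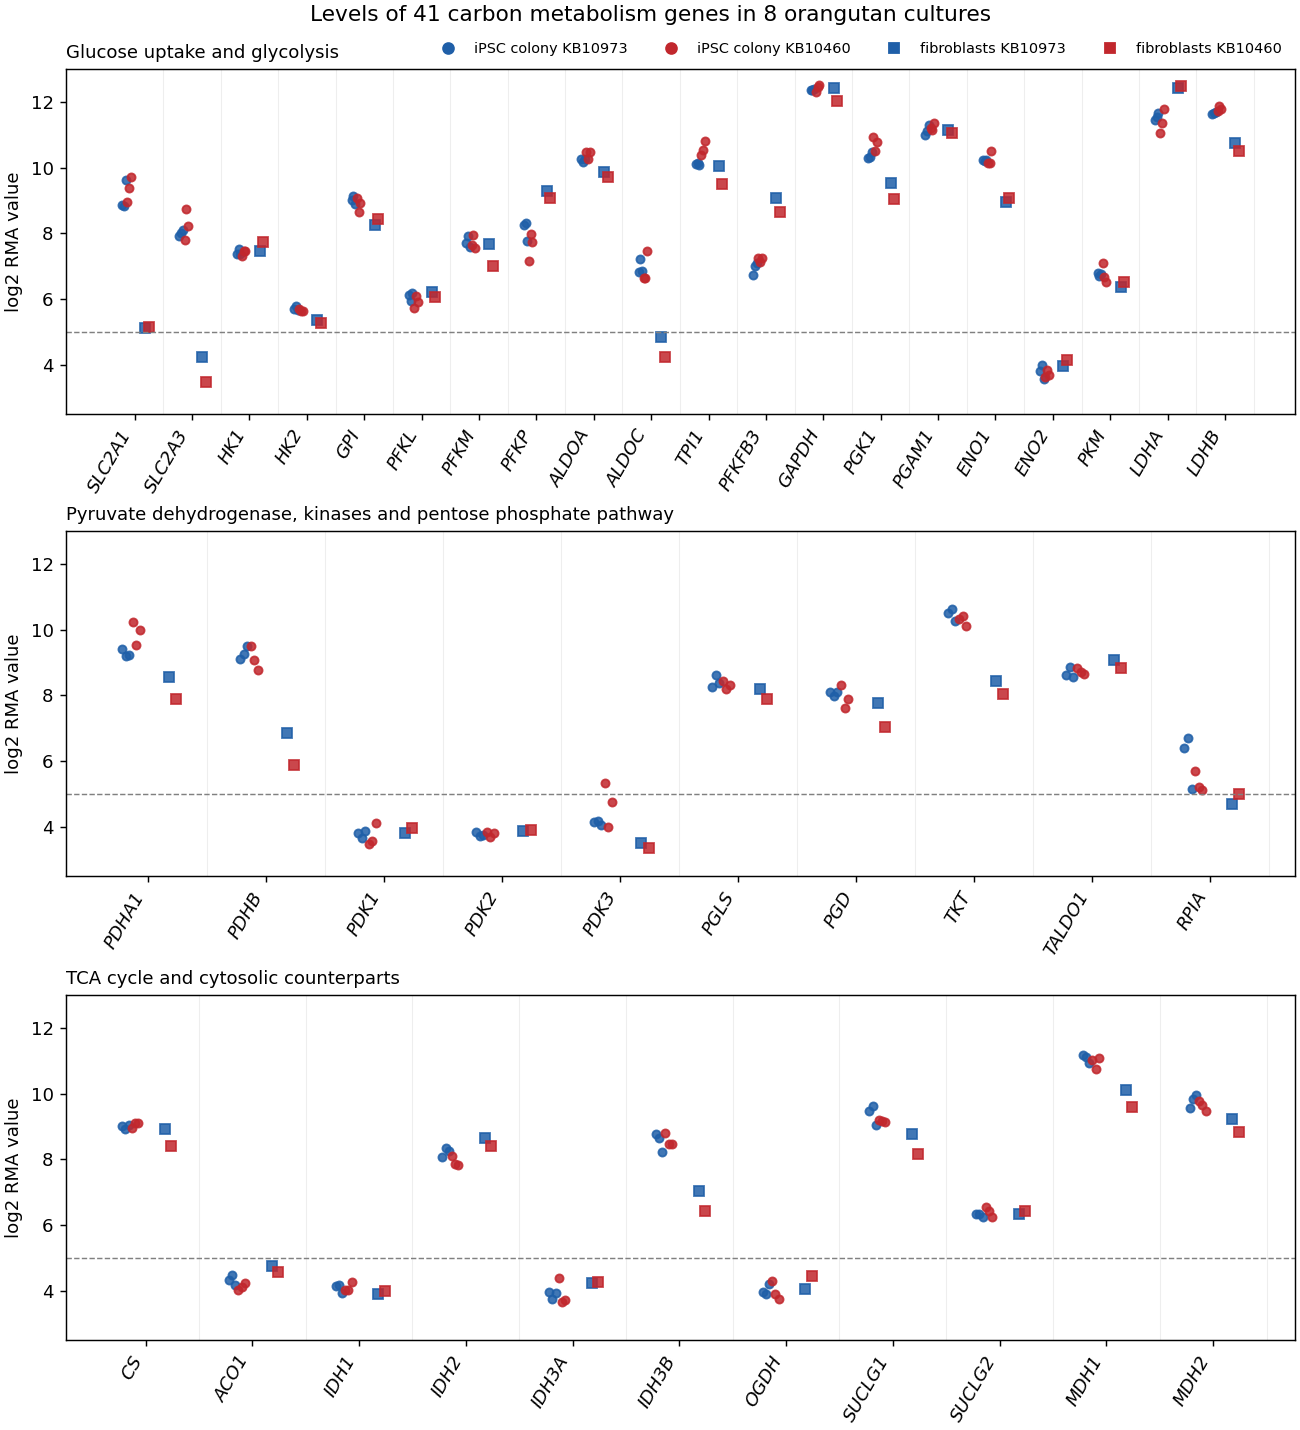
Log2 RMA values of the 41 genes on each of the 8 arrays, by pathway. Circles are iPSC colonies and squares are fibroblast cultures, coloured by donor, and the dashed line marks a log2 value of 5. SLC2A1, SLC2A3, ALDOC, PDHB and TKT show the widest gaps with the colonies on top, and PFKP, PFKFB3 and LDHA lie lower in the colonies.

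The widest gaps of the list were at the glucose transporters. SLC2A1 encodes GLUT1, the transporter of basal glucose uptake, and SLC2A3 encodes GLUT3, a transporter with high affinity best known from neurons. In the order of colony number, SLC2A1 was at 8.85, 8.84 and 9.63 in KB10973 iPSCs and 8.94, 9.37 and 9.73 in KB10460 iPSCs, against 5.12 in KB10973 fibroblasts and 5.14 in KB10460 fibroblasts. Every colony was thus more than 3 log2 units above both fibroblast cultures, and the log2 fold change was 4.10 (SE 0.25, adjusted p = 3.22e-06, 17.1-fold). SLC2A3 was at 7.93, 8.0 and 8.09 in KB10973 iPSCs and 7.79, 8.72 and 8.22 in KB10460 iPSCs, against 4.23 in KB10973 fibroblasts and 3.46 in KB10460 fibroblasts. Its fibroblast values were in the low range, and its log2 fold change was 4.28 (SE 0.26, adjusted p = 2.66e-06, 19.4-fold). All 3 probe sets of SLC2A3 were called higher, with log2 fold changes of 2.60 to 4.28, while the other probe set of SLC2A1 was low and not called (0.75).

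Of the 9 genes between hexokinase and triose phosphate, 2 were higher in iPSCs, 1 was lower and 6 were not called. Counts by step, here and below, are to be read beside the 15.2% higher and 11.5% lower among all genes. Over so few genes they give no result for a step as a whole. ALDOC, the aldolase isoenzyme best known from brain, was at 6.81, 7.23 and 6.85 in KB10973 iPSCs and 6.63, 6.62 and 7.47 in KB10460 iPSCs, against 4.83 in KB10973 fibroblasts and 4.24 in KB10460 fibroblasts. The fibroblast values were low and every colony lay above them, with a log2 fold change of 2.40 (SE 0.25, adjusted p = 7.89e-05). PFKP, the platelet-type subunit of phosphofructokinase, which catalyses the committed step of glycolysis, was at 8.24, 8.31 and 7.77 in KB10973 iPSCs and 7.14, 7.99 and 7.74 in KB10460 iPSCs, against 9.30 in KB10973 fibroblasts and 9.08 in KB10460 fibroblasts. All colonies were below both fibroblast cultures, KB10460 colony 1 by the widest margin, and the log2 fold change was -1.32 (SE 0.27, adjusted p = 0.00501). GPI, which interconverts glucose phosphate and fructose phosphate, was just past the fold threshold at 0.60 (SE 0.13, adjusted p = 0.00543), and without KB10460 colony 1, for example, its log2 fold change of 0.58 fell short of it.

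The remaining genes of this stretch moved less. HK2, the inducible hexokinase, was at 5.62 to 5.78 in iPSCs against 5.35 in KB10973 fibroblasts and 5.25 in KB10460 fibroblasts. Its log2 fold change of 0.38 (SE 0.07, adjusted p = 0.00350) was below the fold threshold although no arrays overlapped. HK1, the hexokinase of most tissues, had a log2 fold change of -0.17 (95% interval -0.39 to 0.04). ALDOA, the muscle-type aldolase, was at 10.25, 10.16 and 10.25 in KB10973 iPSCs and 10.47, 10.27 and 10.48 in KB10460 iPSCs, against 9.85 in KB10973 fibroblasts and 9.70 in KB10460 fibroblasts. All colonies were above both fibroblast cultures, but the log2 fold change of 0.54 (SE 0.11, adjusted p = 0.00414) was below the fold threshold, which it passed without the KB10973 fibroblasts (0.61). The liver-type subunit PFKL was at 6.13, 5.94 and 6.17 in KB10973 iPSCs and 5.73, 6.07 and 5.89 in KB10460 iPSCs, against 6.22 in KB10973 fibroblasts and 6.06 in KB10460 fibroblasts (log2 fold change -0.15). The muscle-type subunit PFKM was at 7.70, 7.91 and 7.59 in KB10973 iPSCs and 7.64, 7.95 and 7.55 in KB10460 iPSCs, against 7.67 in KB10973 fibroblasts and 6.99 in KB10460 fibroblasts (log2 fold change 0.39). At these probe sets the arrays of both subunits overlapped between the cell types. At the other probe set of PFKL all colonies were below both fibroblast cultures. Its log2 fold change of -0.48 (limma adjusted p = 0.0284) did not reach the fold threshold. The log2 fold change of PFKM was 0.73 without the KB10973 fibroblasts, against 0.056 without the KB10460 fibroblasts. TPI1, triosephosphate isomerase, had a log2 fold change of 0.56 (adjusted p = 0.0875) with a wide difference between the donors' fibroblasts. A second probe set was called higher (0.63, adjusted p = 0.0377), a low one gave -0.20, and the probe set used here was called higher without the KB10973 fibroblasts (0.83, adjusted p = 0.0439).

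PFKFB3 makes the sugar phosphate that activates phosphofructokinase and so regulates the rate of glycolysis. It was at 6.74, 7.0 and 7.08 in KB10973 iPSCs and 7.23, 7.13 and 7.24 in KB10460 iPSCs, against 9.06 in KB10973 fibroblasts and 8.65 in KB10460 fibroblasts. The colonies lay within a span narrower than their distance to the fibroblasts, and the log2 fold change was -1.79 (SE 0.15, adjusted p = 2.41e-05), a 3.45-fold lower level in iPSCs.

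Of the 6 genes between triose phosphate and pyruvate, 2 were higher in iPSCs and 4 were not called. ENO1, the enolase of most tissues, was at 10.23, 10.19 and 10.22 in KB10973 iPSCs and 10.13, 10.13 and 10.51 in KB10460 iPSCs, against 8.93 in KB10973 fibroblasts and 9.07 in KB10460 fibroblasts. All colonies lay more than 1 log2 unit above both fibroblast cultures, with a log2 fold change of 1.23 (SE 0.11, adjusted p = 3.24e-05). A second probe set of ENO1 was called as well (1.33), and a low one was not (0.12). PGK1, phosphoglycerate kinase, which makes ATP, was at 10.30, 10.31 and 10.46 in KB10973 iPSCs and 10.92, 10.50 and 10.79 in KB10460 iPSCs, against 9.54 in KB10973 fibroblasts and 9.04 in KB10460 fibroblasts. Its log2 fold change was 1.26 (SE 0.19, adjusted p = 0.000962), and 3 of its 4 probe sets were called higher, the exception being a low one (0.11). ENO2, the neuronal enolase, stayed low in both cell types, at 3.80, 3.97 and 3.57 in KB10973 iPSCs and 3.62, 3.83 and 3.68 in KB10460 iPSCs, against 3.97 in KB10973 fibroblasts and 4.13 in KB10460 fibroblasts.

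GAPDH, often used as a loading control, was not called at any of its 6 probe sets, whose log2 fold changes were 0.16 to 0.30. At the probe set used here it was at 12.29 to 12.52 in iPSCs against 12.43 in KB10973 fibroblasts and 12.03 in KB10460 fibroblasts, and its log2 fold change of 0.16 turned to -0.032 without the KB10460 fibroblasts and to -0.25 under the scaling to probe sets above 6. PGAM1, phosphoglycerate mutase, had a log2 fold change of 0.08 (95% interval -0.15 to 0.31), which that scaling turned to -0.34. PKM, the pyruvate kinase gene whose splice forms are not separated by these probe sets, had log2 fold changes of 0.32 and -0.09 at its 2 probe sets, neither of them called.

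The lactate dehydrogenase genes moved in opposite directions. LDHA encodes the subunit that prevails in muscle and LDHB the one that prevails in heart. LDHA was at 11.44, 11.53 and 11.67 in KB10973 iPSCs and 11.05, 11.34 and 11.78 in KB10460 iPSCs, against 12.41 in KB10973 fibroblasts and 12.48 in KB10460 fibroblasts. It was lower in every colony, by 0.98 on average (log2 fold change -0.98, SE 0.17, adjusted p = 0.00196). LDHB was at 11.64, 11.65 and 11.70 in KB10973 iPSCs and 11.73, 11.86 and 11.79 in KB10460 iPSCs, against 10.75 in KB10973 fibroblasts and 10.49 in KB10460 fibroblasts. It was higher in every colony, with a log2 fold change of 1.11 (SE 0.09, adjusted p = 2.51e-05), and its other probe set gave 1.22. The opposite signs held under all scalings tried.

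Of the 5 genes of pyruvate dehydrogenase and its kinases, 3 were higher in iPSCs and 2 were not called. PDHB, the beta subunit of the first enzyme of the complex, was at 9.10, 9.26 and 9.50 in KB10973 iPSCs and 9.50, 9.08 and 8.79 in KB10460 iPSCs, against 6.85 in KB10973 fibroblasts and 5.87 in KB10460 fibroblasts. The colonies were close to each other and far above both fibroblast cultures, with a log2 fold change of 2.85 (SE 0.26, adjusted p = 3.95e-05, 7.19-fold) and 1.74 at the other probe set. PDHA1, the X-linked alpha subunit, was at 9.42, 9.21 and 9.23 in KB10973 iPSCs and 10.25, 9.54 and 9.98 in KB10460 iPSCs, against 8.57 in KB10973 fibroblasts and 7.89 in KB10460 fibroblasts. Its log2 fold change was 1.38 (SE 0.30, adjusted p = 0.00670), but without the KB10460 fibroblasts it was 1.04 and no longer called (adjusted p = 0.0860), and the call was also lost with the colonies averaged within each donor (adjusted p = 0.0712). The other probe set of PDHA1 was low and not called (0.10).

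The pyruvate dehydrogenase kinases switch the complex off by phosphorylation, and all 3 were low in both cell types. PDK1 was at 3.82, 3.65 and 3.86 in KB10973 iPSCs and 3.46, 3.56 and 4.12 in KB10460 iPSCs, against 3.80 in KB10973 fibroblasts and 3.95 in KB10460 fibroblasts. PDK2 was at 3.84, 3.72 and 3.76 in KB10973 iPSCs and 3.84, 3.68 and 3.80 in KB10460 iPSCs, against 3.86 in KB10973 fibroblasts and 3.91 in KB10460 fibroblasts. Neither differed by more than 0.13 between the cell types. PDK3 was at 4.15, 4.17 and 4.06 in KB10973 iPSCs and 5.32, 4.0 and 4.74 in KB10460 iPSCs, against 3.49 in KB10973 fibroblasts and 3.34 in KB10460 fibroblasts. It was called at a log2 fold change of 0.99 (SE 0.32, adjusted p = 0.0466), but its other 2 probe sets were not (0.01 and 0.11) and the call was lost in 16 alternative settings and held in 7.

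Of the 5 genes of the pentose phosphate pathway, 1 was higher in iPSCs and 4 were not called. TKT, transketolase, which links the pathway back to glycolysis, was at 10.51, 10.64 and 10.28 in KB10973 iPSCs and 10.31, 10.40 and 10.11 in KB10460 iPSCs, against 8.44 in KB10973 fibroblasts and 8.03 in KB10460 fibroblasts. Every colony was well above both fibroblast cultures, the log2 fold change was 2.14 (SE 0.15, adjusted p = 8.12e-06, 4.41-fold), and the other probe set gave 2.21. TALDO1, transaldolase, another enzyme of this non-oxidative branch, had a log2 fold change of -0.25 (95% interval -0.49 to -0.01, adjusted p = 0.121). PGD, phosphogluconate dehydrogenase, which yields NADPH, was at 7.63 to 8.33 in iPSCs against 7.77 in KB10973 fibroblasts and 7.05 in KB10460 fibroblasts. Its log2 fold change of 0.60 missed the threshold (adjusted p = 0.0624). PGD was called when the fit held a term for the donor (adjusted p = 0.0471) but not with the colonies averaged within each donor (adjusted p = 0.243). Leaving out the KB10460 fibroblasts gave 0.24, and leaving out the KB10973 fibroblasts gave 0.95 with a call (adjusted p = 0.0112). PGLS, the lactonase of the oxidative branch, had a log2 fold change of 0.32 (adjusted p = 0.0963). RPIA, ribose phosphate isomerase, was above both fibroblast cultures in all 6 colonies, but its wide spread between colonies (5.11 to 6.70) left a log2 fold change of 0.88 without a call (SE 0.43, adjusted p = 0.175).

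Of the 11 genes of the TCA cycle and its cytosolic counterparts, 4 were higher in iPSCs and 7 were not called. IDH3B, a subunit of the NAD-dependent isocitrate dehydrogenase, was at 8.77, 8.64 and 8.21 in KB10973 iPSCs and 8.79, 8.47 and 8.46 in KB10460 iPSCs, against 7.04 in KB10973 fibroblasts and 6.41 in KB10460 fibroblasts. Its log2 fold change was 1.83 (SE 0.19, adjusted p = 9.27e-05), with 1.29 at a second called probe set and 0.29 at one not called. MDH1, the cytosolic malate dehydrogenase of the malate-aspartate shuttle, was at 11.18, 11.12 and 10.94 in KB10973 iPSCs and 11.04, 10.76 and 11.08 in KB10460 iPSCs, against 10.10 in KB10973 fibroblasts and 9.58 in KB10460 fibroblasts. All colonies were above both fibroblast cultures, with a log2 fold change of 1.18 (SE 0.15, adjusted p = 0.000301). SUCLG1, the alpha subunit of succinyl-CoA ligase, and MDH2, the mitochondrial malate dehydrogenase, had smaller log2 fold changes of 0.82 (SE 0.19, adjusted p = 0.0105) and 0.68 (SE 0.15, adjusted p = 0.00742). Without the KB10460 fibroblasts neither was called (0.51 with adjusted p = 0.134 for SUCLG1, and 0.48 with adjusted p = 0.0956 for MDH2), nor was either with the colonies averaged within each donor (adjusted p = 0.109 for SUCLG1 and 0.0785 for MDH2). The other probe set of MDH2 was low and not called (0.37).

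Among the other TCA genes, CS, citrate synthase, had a log2 fold change of 0.37 (adjusted p = 0.0588), which was 0.11 without the KB10460 fibroblasts and 0.63, with a call, without the KB10973 fibroblasts (adjusted p = 0.00264). IDH2, the mitochondrial NADP-dependent isocitrate dehydrogenase, had -0.44 (adjusted p = 0.0559). SUCLG2, the GTP-specific beta subunit of succinyl-CoA ligase, differed by -0.02 (95% interval -0.24 to 0.20). IDH3A, the catalytic alpha subunit of isocitrate dehydrogenase, was low at 3.95, 3.74 and 3.93 in KB10973 iPSCs and 4.37, 3.65 and 3.72 in KB10460 iPSCs, against 4.22 in KB10973 fibroblasts and 4.25 in KB10460 fibroblasts. ACO1, the cytosolic aconitase and iron regulatory protein, IDH1, the cytosolic NADP-dependent isocitrate dehydrogenase, and OGDH, the first enzyme of the oxoglutarate dehydrogenase complex, were also low in both cell types and not called (log2 fold changes -0.44, 0.16 and -0.25).

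Set side by side, the glycolysis genes from uptake to lactate had 7 called higher, 3 lower and 10 not called, with a median log2 fold change of 0.39 over 20 genes. Pyruvate dehydrogenase and its kinases had a median of 0.99 over 5 genes, the pentose phosphate pathway 0.60 over 5 genes and the TCA genes 0.16 over 11 genes. The 0.99 was the value of PDK3 and the 0.16 that of IDH1, both low genes. With low genes removed the medians were 2.11 for pyruvate dehydrogenase and its kinases and 0.68 for the TCA genes, the mean of all probe sets of a gene gave 0.37 for pyruvate dehydrogenase and its kinases, and without the KB10460 fibroblasts the pentose phosphate pathway had 0.24. The medians thus rest on few genes and give no stable order of the pathways, and the ranges within each pathway were wider than the distances between the medians (-1.79 to 4.28 in glycolysis and -0.44 to 1.83 in the TCA group). Under the scaling to probe sets above 6 the medians of glycolysis and of the TCA group turned to -0.030 and -0.26. In all, 8 genes were low in both cell types, 4 of them in the TCA group and 3 among the kinases, and PDK3 was the only 1 of the 8 that was called. Of the 33 genes with a mean over 5 in at least 1 cell type, 14 were higher and 3 lower, beside 31.2% higher and 22.6% lower among all genes above that level.

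**Figure D2:**
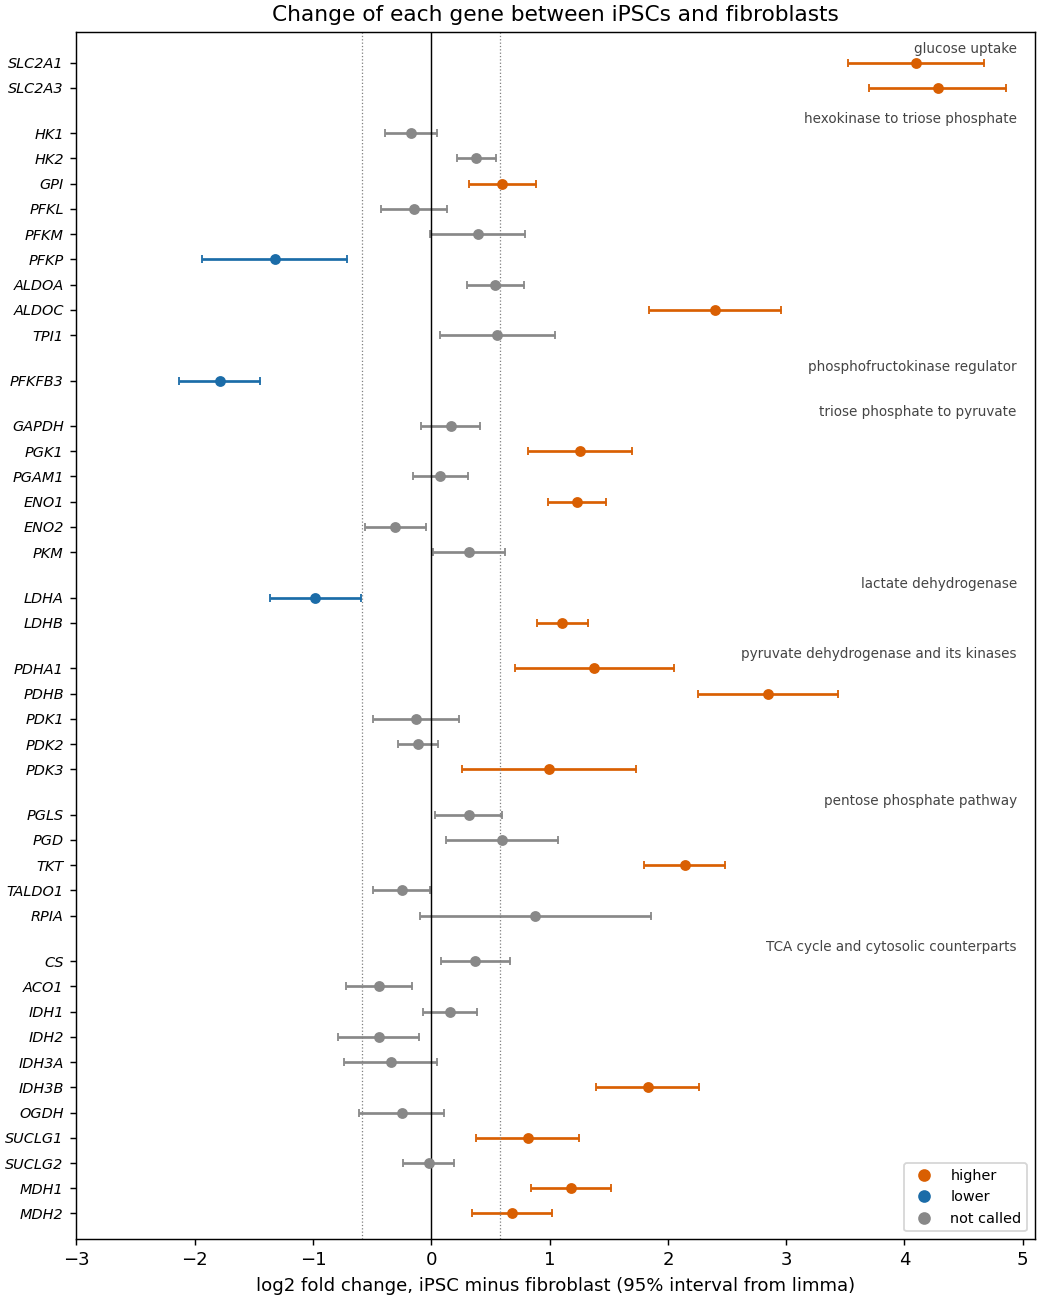
Log2 fold change of each gene, iPSC minus fibroblast, with the 95% interval from limma over 8 arrays, grouped by step. Orange genes were called higher in iPSCs (15), blue genes lower (3) and grey genes not called (23), and the dotted lines mark the fold threshold of 1.5. Under another scaling, to an equal mean over probe sets above 6, all points shift down by 0.42.

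Isoenzymes and subunits of the same enzyme were compared through the difference of their log2 values within each array, which does not depend on the scaling of the array. Of 16 such pairs, 13 did not overlap between the cell types, and in 9 of these the mean difference also changed by more than 1 log2 unit. Single genes did so often too, with all iPSC arrays above in 23.6% and below in 19.7% of all genes. The share over pairs of other genes was not counted, so these counts do not set the pairs apart. With 6 arrays against 2 the exact permutation test has 28 regroupings and cannot go below p = 0.0714 (two-sided). Any pair without overlap reaches that value, so for the 13 pairs this test adds nothing to the absence of overlap. When the differences were added to the limma fit as rows, 12 of the 16 pairs had an adjusted p under 0.05.

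The change of the lactate dehydrogenase pair was the largest of those with both genes above the low range. LDHA minus LDHB was -0.20, -0.12 and -0.03 in KB10973 iPSCs and -0.68, -0.52 and -0.01 in KB10460 iPSCs, against 1.67 in KB10973 fibroblasts and 1.99 in KB10460 fibroblasts. The ratio of LDHA to LDHB signal was thus 4.26-fold lower in iPSCs (log2 change -2.09, limma SE 0.19). For the phosphofructokinase subunits, PFKM minus PFKP was -0.54 to 0.50 in iPSCs against -1.63 in KB10973 fibroblasts and -2.09 in KB10460 fibroblasts, a change of 1.72 (limma SE 0.25). PFKL minus PFKP changed by 1.17 (limma SE 0.22), so both PFKL and PFKM gained signal relative to PFKP, while PFKL minus PFKM overlapped between the cell types (change -0.54, exact p = 0.143). In limma this last change had an adjusted p of 0.0477, and its size depended on the fibroblast culture used, with -0.29 against KB10973 fibroblasts alone and -0.80 against KB10460 fibroblasts alone.

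For aldolase, ALDOC minus ALDOA was -3.84 to -2.93 in iPSCs against -5.02 in KB10973 fibroblasts and -5.46 in KB10460 fibroblasts, a change of 1.86 (limma SE 0.24). For enolase, ENO2 minus ENO1 changed by -1.54 (limma SE 0.15), a value carried by ENO1 because ENO2 was low on all arrays. PDHA1 minus PDHB was -0.27 to 1.19 in iPSCs against 1.72 in KB10973 fibroblasts and 2.01 in KB10460 fibroblasts, so the beta subunit gained more signal than the alpha subunit (change -1.47, limma SE 0.34). IDH3A minus IDH3B changed by -2.17 (limma SE 0.21) with IDH3A low on all arrays. PDK1 minus PDK3 changed by -1.12 and missed the threshold in limma (adjusted p = 0.0527). PDK2 minus PDK3 changed by -1.10 (limma adjusted p = 0.0225), and all 3 kinase genes were low in both cell types. With the mean of all probe sets of each gene these last 3 changes were -1.38, -0.50 and -0.48. The low genes limit the 3 changes to what IDH3B and a single probe set of PDK3 showed.

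**Figure D3:**
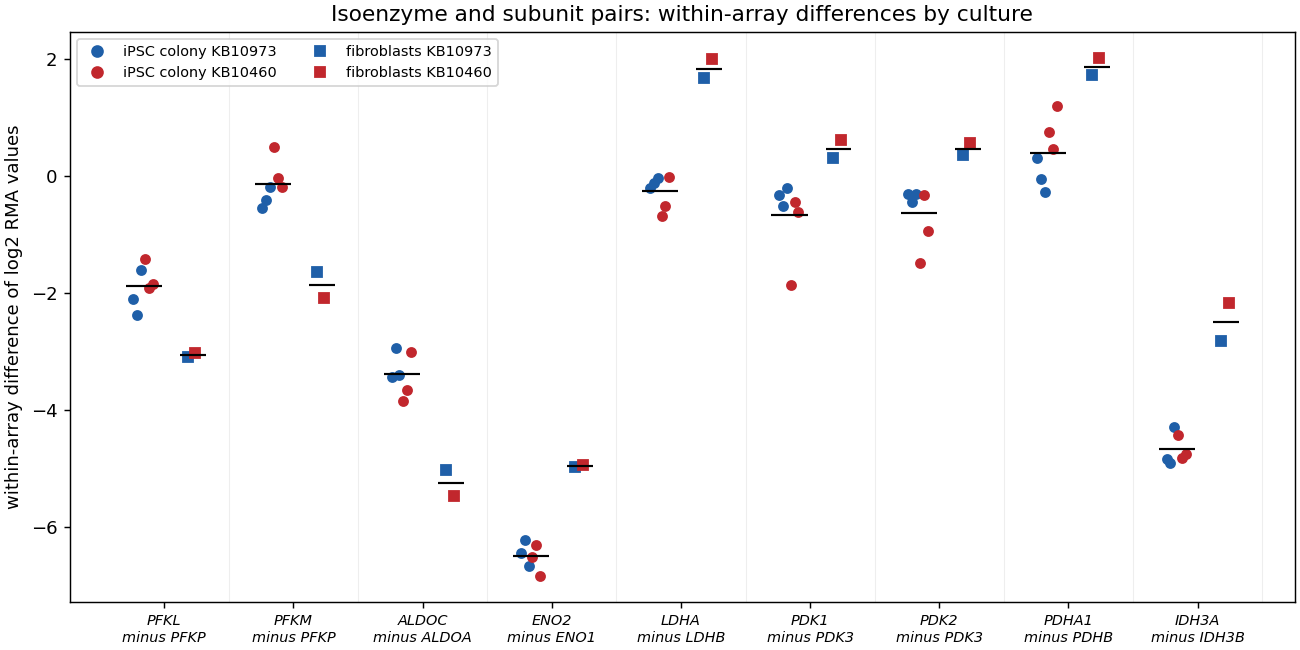
Difference of log2 RMA values within each array for the 9 pairs that did not overlap between the cell types and changed by more than 1 log2 unit. Circles are iPSC colonies, squares are fibroblast cultures, colours are donors and bars are means. For LDHA minus LDHB the colonies lie between -0.68 and -0.01 and the fibroblasts at 1.67 and 1.99.

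The other pairs changed less. HK2 minus HK1 rose by 0.55 (limma SE 0.11, adjusted p = 0.0041), SUCLG1 minus SUCLG2 by 0.84 (limma SE 0.21) and IDH1 minus IDH2 by 0.60 (limma SE 0.19, IDH1 low). MDH1 minus MDH2 differed by 0.50 and missed the threshold (limma SE 0.17, adjusted p = 0.0543). Without the KB10460 fibroblasts the change of SUCLG1 minus SUCLG2 was 0.48. None of these pairs overlapped between the cell types. SLC2A3 minus SLC2A1 overlapped (change 0.18, limma 95% interval -0.45 to 0.81), and the mean of all probe sets of each gene gave a change of 1.28. Since SLC2A3 was low in fibroblasts, its rise can be understated, and no order of the rises of the transporters can be given. PDK1 minus PDK2 also overlapped (change -0.02, limma 95% interval -0.38 to 0.34).

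Between donors, most genes of the list changed in the same direction. Of the 41 genes 39 had the same sign of change in KB10973 as in KB10460, and the exceptions were GAPDH and PGAM1. All 18 called genes were among the 39, which is largely set by their selection, since calls were made over the arrays of both donors. The share of all genes with the same sign was not counted. The iPSCs of KB10973 and of KB10460 differed in none of the 41 genes by limma, beside 0.142% of all genes, while 5 of the 41 were at an unadjusted p under 0.05, beside 11.8% of all genes. The difference of the change between donors was called in none, beside 3.42% of all genes, while 9 were at an unadjusted p under 0.05, beside 17.3% of all genes. At other probe sets it was called lower for PGK1 (log2 difference -1.72, adjusted p = 0.0192) and TPI1 (-1.02, adjusted p = 0.0392). At the probe sets used here it was called for TPI1 without KB10460 colony 1 (log2 difference -1.11, adjusted p = 0.0257), and for PGK1 (-1.0, adjusted p = 0.0479) and PDHA1 (-1.51, adjusted p = 0.0264) without KB10460 colony 2.

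Most genes had a higher value in the fibroblasts of KB10973. In 27 of the 41 genes (65.9%) the value was higher in KB10973 fibroblasts than in KB10460 fibroblasts, beside 49.4% of all genes, with a median difference of 0.22 and a range of -0.39 to 0.98. The largest such gap was that of PDHB. The median change over the 41 genes was 0.21 in KB10973 and 0.42 in KB10460. With 1 fibroblast culture per donor this gap has no replicate check. One control of RNA quality, ACTB, moved with it. Its signal at the 3′ end minus that at the 5′ end was 2.64 in KB10973 fibroblasts and 3.90 in KB10460 fibroblasts, against 2.16 to 2.80 in the colonies. The same measure of GAPDH was -0.30 in KB10973 fibroblasts and -0.13 in KB10460 fibroblasts, both within the -0.34 to 0.03 of the colonies. The fibroblast cultures also differed in CD14, a macrophage marker, at 5.42 in KB10973 fibroblasts and 7.99 in KB10460 fibroblasts. PECAM1, an endothelial and leukocyte marker, was at 6.65 in KB10973 fibroblasts and 8.10 in KB10460 fibroblasts. Each was the only marker of its list over 5 in a fibroblast culture, and the other 5 endothelial markers were under 5 in both. The other 4 macrophage and leukocyte markers were under 5 in both fibroblast cultures, PTPRC, which encodes CD45, at 3.26 in KB10973 fibroblasts and 3.33 in KB10460 fibroblasts. The part of these differences in the gap was not tested. Without the KB10460 fibroblasts 11 genes were called higher and 3 lower, and without the KB10973 fibroblasts 18 were called higher and 3 lower.

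In some genes the spread among colonies went with the chromosome of the gene. This was looked at because earlier results of these same arrays had shown raised chromosome 12 genes in KB10973 colonies 1 and 2. The values are therefore a description and not a test. The paper compared DNA of KB10973 colony 1 and KB10460 colony 1 with that of their donor fibroblasts and reports no large copy number changes. The cause of the raised values was not tested here. Genes were placed by symbol on the chromosomes of the orangutan assembly NHGRI_mPonAbe1-v2.0, and each colony was set against the median of the 6 colonies. Of the list, HK2, RPIA, SUCLG1 and MDH1 lie on chromosome 12, and their median deviation was 0.22 in KB10973 colony 1 and 0.28 in KB10973 colony 2, against -0.14 to 0.01 in the other 4 colonies. The 124 other chromosome 12 genes with a mean over 6 in iPSCs had medians of 0.35 and 0.40 in these colonies. RPIA stood out at 6.40 and 6.70 in KB10973 colonies 1 and 2, against 5.15 in KB10973 colony 3 and 5.70, 5.21 and 5.11 in the KB10460 colonies. SUCLG1 was at 9.48 and 9.62 in those colonies and at 9.06 to 9.19 in the other 4, whereas HK2 and MDH1 deviated by at most 0.12 there. Without KB10973 colonies 1 and 2, 14 genes were called higher and 3 lower. GPI and PDK3 lost their calls there and ALDOA was called, and none of these genes lies on chromosome 12. SUCLG1 and MDH1 kept their calls.

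The X-linked genes PGK1, PDHA1 and PDK3 varied among the colonies of the female KB10460, and were singled out after their values were seen. Their median deviation was 0.77 in colony 1, 0.02 in colony 2 and 0.50 in colony 3, against -0.17 to -0.06 in the colonies of the male KB10973. The 119 other X-linked genes with a mean over 6 in iPSCs had medians of 0.82, -0.03 and 0.20 in the KB10460 colonies. XIST, the RNA that coats the inactive X chromosome in females, was at 2.84, 6.88 and 4.84 in these colonies. The order of the 3 genes and of the 119 thus ran opposite to that of XIST, which is a description of 3 arrays. In the KB10460 fibroblasts XIST was low as well, at 3.62, against 3.22 in KB10973 fibroblasts and 2.90 to 3.21 in KB10973 colonies. Why it was low in that culture of female cells was not tested. PDHA1 deviated by 0.77 in KB10460 colony 1, PGK1 by 0.44 and PDK3 by 1.16. The 7 genes on chromosome 10 and the 4 on chromosome 8 deviated by medians of no more than 0.14 in any colony, while the 171 other chromosome 10 genes had a median of 0.33 in KB10460 colony 2.

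**Figure D4:**
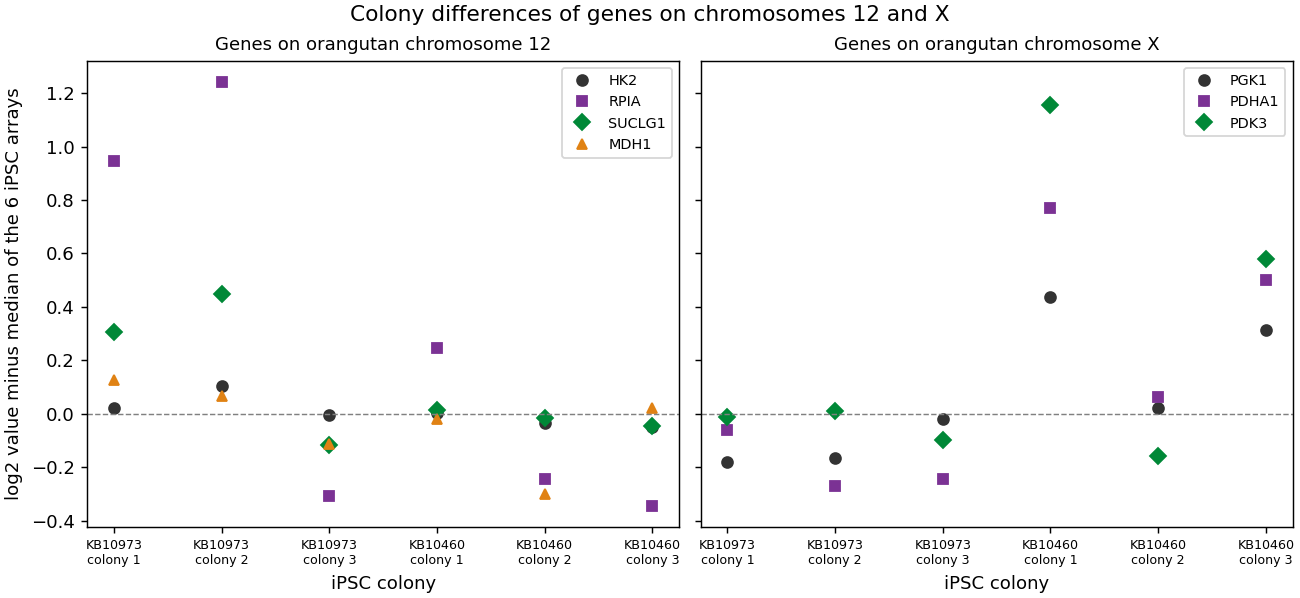
Log2 value minus the median of the 6 iPSC arrays, by colony, for the genes of the list on orangutan chromosome 12 and on chromosome X. RPIA and SUCLG1 stand above 0 in KB10973 colonies 1 and 2, and PGK1, PDHA1 and PDK3 stand above 0 in KB10460 colonies 1 and 3.

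Further genes of the same pathways were counted from lists of their own. Of 23 further glycolysis and glucose uptake genes 2 were higher in iPSCs and 3 lower, beside 15.2% higher and 11.5% lower among all genes, the shares against which the counts of the next lists are to be read as well. ENO3, the muscle enolase, was at 7.31 ± 0.23 in iPSCs (SD, n = 6) and 3.46 ± 0.30 in fibroblasts (SD, n = 2), a log2 fold change of 3.84, and PGM1, phosphoglucomutase of glycogen metabolism, rose by 1.66. BPGM, which makes the bisphosphoglycerate of red blood cells, and SLC2A10, which encodes GLUT10, were lower by log2 fold changes of -1.77 and -0.99. Of 14 genes of pyruvate and lactate handling, ME2, the mitochondrial malic enzyme, was higher (1.13), and MPC2 and MPC1, which together form the mitochondrial pyruvate carrier, were lower (-1.36 and -0.78).

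Of 7 further pentose phosphate genes, PRPS1, which activates ribose for nucleotide synthesis, and DERA, the deoxyribose phosphate aldolase, were higher (log2 fold changes 2.08 and 1.64) and none was lower. Of 13 further TCA genes 3 were higher, among them SUCLA2, the ATP-specific beta subunit of succinyl-CoA ligase (1.74), and PCK2, the mitochondrial phosphoenolpyruvate carboxykinase (1.32). DLST, a subunit of the oxoglutarate dehydrogenase complex, was lower (-0.93). All of these calls had adjusted p of 0.0223 or less in limma, where MPC1 had the highest.

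Many glycolytic genes are targets of the hypoxia-inducible factors and of MYC proteins. Of 17 hypoxia response genes outside glycolysis 9 were lower in iPSCs and 2 higher, with a median log2 fold change of -1.83. LOX, a collagen-crosslinking enzyme, and HILPDA, a lipid droplet protein, were lower by log2 fold changes of -4.23 and -3.94, and KDM3A, a histone demethylase, and EGLN3, a prolyl hydroxylase, were higher (1.37 and 0.98). Several of these hypoxia response genes, such as LOX, are also products of fibroblasts. Among 10 transcription regulators of glycolysis, MYCN was at 8.65 ± 0.21 in iPSCs (SD, n = 6) and 4.44 ± 0.16 in fibroblasts (SD, n = 2), a log2 fold change of 4.21. EPAS1 and HIF1A, which encode hypoxia-inducible factor subunits, were lower (-4.43 and -1.09). MYC, whose human form was also delivered by the retroviruses, was not called (0.41, adjusted p = 0.430).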

How the data were processed

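Per the labels and the study's methods, the authors labelled total RNA with biotin, hybridized it to human Affymetrix arrays and normalized them with RMA in WebArray, with its version not given in the sources used here. The deposited table holds log2 values of 22277 probe sets. The number of columns without a sample was 0. Of the probe sets 19070 had 1 gene symbol, 1043 several and 2164 none. Precision is limited by how few arrays there are.

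These log2 values were fitted with limma 3.58.1 (functions lmFit and eBayes, R 4.3.3), setting iPSCs against fibroblasts on 8 arrays, KB10973 against KB10460 iPSCs on 6 arrays, and the change of each donor against that of the other in 4 groups, where each fibroblast culture was assumed to vary like a colony. P-values were adjusted over all probe sets (Benjamini-Hochberg) and calls needed a fold over 1.5 and an adjusted p under 0.05, two-sided. The SPLOSH false discovery rates of the methods were not run here. Exact permutation tests and descriptions used Python 3.11.15 and SciPy 1.17.1, and the fits were tested on simulated data.

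Since each animal gave both its fibroblasts and its colonies, arrays were paired by donor in an alternative fit. The donor differences in iPSCs and in fibroblasts had a correlation of 0.02 across probe sets. Alternatives changed the donor block, averaging or leaving out of arrays, weights, moderation, scaling, filter, false discovery rate, fold and probe set. Every gene of the list was named, with the values on every array for the 2 called genes of largest change in each step and for pairs changed by over 1 without overlap. Of the other lists, up to 2 called genes each way were named. The members, lists and pairs were chosen with earlier results of these data known.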

Additional observations from a re-analysis of the deposited data

Results flagged for a closer look

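Among the 6 iPSC arrays, ENO1 was highest in KB10460 colony 3 at 10.51, far from the next value of 10.23 relative to the spread of the other 5 colonies. The gap made up 0.739 of the range of the group, past Dixon's limit for 6 values. This test was run on the iPSC values of the 41 genes, and chance alone passes that limit in about 1 of 20 groups, and here it was passed once. All 6 colonies remained above both fibroblast cultures for ENO1.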

How the results depend on the processing

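Of 976 combinations of a gene with an alternative setting, 900 kept the direction and the side of the threshold, 41 lost a call, 20 gained one and 15 changed sign. Of the 18 called genes 12 kept the call in each setting (SLC2A1, SLC2A3, PFKP, ALDOC, PFKFB3, PGK1, ENO1, LDHB, PDHB, TKT, IDH3B and MDH1), and GPI, LDHA, PDHA1, PDK3, SUCLG1 and MDH2 lost it in at least 1, LDHA only when a fold over 2 was required. With the donor as a replicate block 16 genes were higher and 3 lower, PGD being added. With the colonies averaged within each donor 11 were higher and 3 lower, as PDHA1, PDK3, SUCLG1 and MDH2 lost their calls, and with the donor as a random block 14 were higher and 3 lower, as PDK3 did (adjusted p = 0.0501). Equal colony numbers pair nothing by the labels, and with the colony number as a replicate block 0 genes were called between the donors' iPSCs.

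Leaving out each array in turn gave 11 to 18 genes higher and 3 lower, and medians of 0.24 to 0.52 over the 41 genes, 0.31 to 0.47 in glycolysis, 0.24 to 0.73 in the pentose phosphate pathway, 0.81 to 1.07 in pyruvate dehydrogenase and its kinases and 0.11 to 0.19 in the TCA group, and 0 to 2 genes were called lower when the change was compared between donors. The lowest count and the lowest medians of the 41 genes and of glycolysis came without the KB10460 fibroblasts. Leaving out KB10460 colony 1 together with the KB10460 fibroblasts, an alternative added after seeing the data, gave medians of 0.22 over the 41 genes, 0.30 in glycolysis and 0.17 in the pentose phosphate pathway.

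Scaling to an equal mean over probe sets above 6, a level taken over 8 arrays of which 6 are of iPSCs, shifted every gene of the array by -0.42 and gave 11 genes higher and 10 lower (52.4% of calls higher, against 83.3% before). Medians became -0.036 over the 41 genes, -0.030 in glycolysis, 0.18 in the pentose phosphate pathway and -0.26 in the TCA group, and HK2 (-0.036), PFKM (-0.024), GAPDH (-0.25), PGAM1 (-0.34), PKM (-0.10), PGLS (-0.10), CS (-0.046) and IDH1 (-0.26) changed sign. Scaling to probe sets above 6 in both cell types, also added after seeing the data, gave 12 genes higher and 5 lower (70.6% of calls higher), medians of 0.23 over the 41 genes, 0.23 in glycolysis and 0.0039 in the TCA group, and -0.078 for PGAM1. Median centring gave 0.43 over the 41 genes and 0.023 for SUCLG2.

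A filter on values over 5 gave medians of 0.56 over the 33 genes left, 2.11 in pyruvate dehydrogenase and its kinases and 0.68 in the TCA group, since it removes the low genes, and the mean of all probe sets of a gene gave 0.37 in pyruvate dehydrogenase and its kinases. When arrays were left out 1 at a time, GAPDH ranged between -0.032 (without the KB10460 fibroblasts) and 0.36, SUCLG2 between -0.068 and 0.027, SLC2A3 minus SLC2A1 between -0.21 and 0.57, and PDK1 minus PDK2 between -0.090 and 0.050. Without both KB10460 colony 1 and the KB10460 fibroblasts GAPDH was at -0.011. The causes of these shifts were not tested. Genes under 5 on these human probes have little room to show a change.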
